A study of Mus musculus with 6 samples.

Results

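The genes described here are those of T cell receptor signalling and costimulation, measured by RNA-seq in inflamed mouse skin. They were taken from the deposited table by name: 39 genes for the CD3 chains and coreceptors, the kinases and adaptors next to the receptor, costimulatory and inhibitory receptors, interleukin-2 receptor chains and lineage factors. All 39 names were found among the 18824 genes of the table. The rule takes genes by name and by no threshold on values, but the names were chosen with earlier results of these data known. The 6 libraries came from skin of C57BL/6j mice treated with MC903, a vitamin D analogue that brings on inflammation like that of atopic dermatitis where it is put on the skin. The libraries titled CCR3 are 3 samples from mice given a compound, and those titled VEH are 3 samples given vehicle, with replicate numbers 1, 2 and 4 in each group. The series title names the compound as SB328437, which blocks the chemokine receptor CCR3. The treatment label of the CCR3 libraries names SC144, an inhibitor of the gp130 receptor subunit, so which compound was given is not settled here. Both groups carry MC903 inflammation, as far as the title says. The labels give no age, sex, dose or route and do not say whether a library is 1 mouse or a pool. Skin without MC903 was not analysed here.

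The T cell receptor recognises peptide on MHC molecules and has no signalling part of its own. It signals through the CD3 chains, whose tails are phosphorylated by the kinase Lck, which the coreceptors CD4 and CD8 bring to the complex. Zap70 then docks on those tails and phosphorylates the adaptors Lat and Lcp2, from which calcium, Ras and actin responses start. Costimulatory receptors such as Cd28 and Icos add to this signal and inhibitory ones such as Ctla4 and Pdcd1 dampen it. In skin of atopic dermatitis and of its mouse models, CD4+ T cells that make type 2 cytokines are among the infiltrating cells. Mouse epidermis also holds its own gamma delta T cells.

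The 3 libraries of the CCR3 group differed among themselves more than those of the VEH group. The values are FPKM (fragments scaled to transcript length and to the mapped reads of the library), which summed to 517764 to 553305 per library. Depth is unknown, since the table holds no counts. Pearson's r between libraries across all genes was 0.993 to 0.998 within groups and 0.99 to 0.995 between them, and genes are not independent replicates. Component 1 of a principal component analysis, with 52.9% of the variance, placed CCR3 replicate 4 nearest to the VEH libraries (3.45, against 11.23 and 22.97 for CCR3 replicates 1 and 2 and -14.82 to -10.16 for the VEH libraries). Nothing in the labels ties samples to separate mice, so the p-values rest on a spread between samples that may be technical. Bulk skin holds few T cells, and fewer T cells and less RNA per T cell cannot be told apart in it.

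Keratinocyte genes were abundant, as the skin label has it, with Krt14 at 4157 to 5478 FPKM in the CCR3 libraries and 4203 to 4994 FPKM in the VEH libraries. T cell genes were present at low levels. The constant-region genes of the T cell receptor itself were not matched by name and were not analysed here. Cd3e stood at 1.90, 2.51 and 3.32 FPKM in CCR3 replicates 1, 2 and 4 and at 3.74, 3.17 and 2.98 FPKM in VEH replicates 1, 2 and 4. Of the 39 genes, 34 reached 1 FPKM in at least 3 libraries and were tested, 31 of them reaching it in all 6. The 5 below that level were Trat1, Themis, Sh2d1a, Cd40lg and Tbx21, whose values ran from 0 to 1.13 FPKM.

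Across the tested members most values were lower in the CCR3 libraries, and 4 genes passed the test: Cd3g, Cd4, Lat and Cd28. They fell by 0.58, 0.66, 0.60 and 0.55 on the log2(FPKM + 1) scale, a change to 0.647, 0.609, 0.623 and 0.562 of the mean FPKM in VEH. The test was limma on log2(FPKM + 1), 2-sided, with Benjamini-Hochberg adjustment over 13063 genes and a threshold of 0.05. Of the 34 members 4 were lower and 0 higher, and among all tested genes 2.37% were lower and 1.36% higher. That split was 2% and 1.76% after median-centring, which moved the median of all genes to -0.01, and 1.32% and 1.21% after scaling libraries to 1 sum, with 4 and 3 members lower. At an adjusted p under 0.1 limma called 10 members lower, and 5.81% of all tested genes. At an unadjusted p under 0.05, 18 members were lower and 1 higher, where the shares over all tested genes were 15.1% and 8.03%. In 14 members every CCR3 library lay below every VEH library and in 1 above, against 18.3% and 10.4% of all tested genes. The log2 fold change was negative in 31 of the 34 members, with a median of -0.28, and in 59.8% of all tested genes, with a median of -0.04. Each of the 4 calls was lost in some of the fits that left out 1 library. Such fits also have fewer libraries to estimate the spread from. Without CCR3 replicate 4, 16 members were called by limma, all lower, among 8.29% of all genes. Without CCR3 replicate 1 the only member called was Cd28 (0.643% of all genes lower), without CCR3 replicate 2 Cd3g (1.32%) and without VEH replicate 2 Cd4 (0.521%). Without VEH replicate 1 or VEH replicate 4 no member was called (0.306% and 0.352%).

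**Figure D1:**
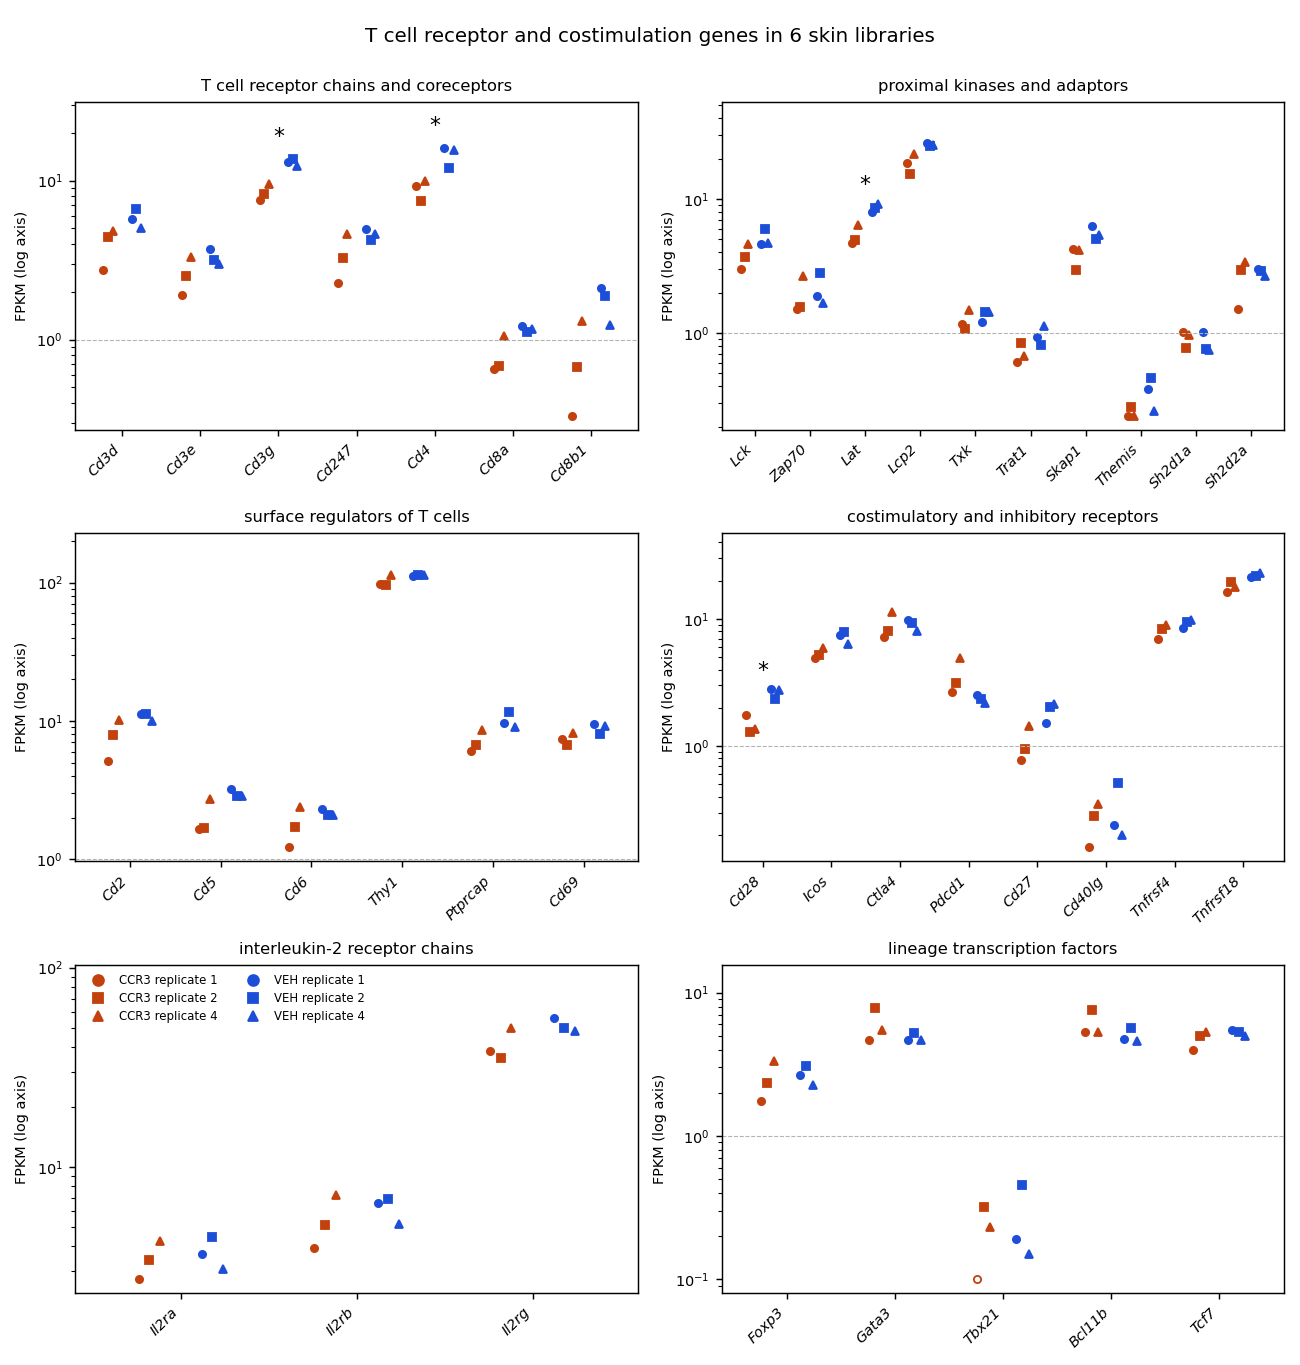
FPKM (log axis) of the 39 genes in each library, in panels by role, with CCR3 libraries (orange) left of VEH libraries (blue), symbols for replicates 1, 2 and 4, a dashed line at 1 FPKM and asterisks on the 4 genes called lower in CCR3. An open symbol drawn at 0.1 is a value of 0 (Tbx21 in CCR3 replicate 1), and in most panels CCR3 replicate 4, the triangle, is the highest of its group.

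Promoters are shown for Cd3g and Lat, which were called, for Cd3d, the neighbour of Cd3g, and for Pdcd1, the member whose CCR3 values were all above the VEH values. RefSeq's promoter table (GRCm38.p6, 250 bases before to 50 after the annotated start) holds 25 of the 39 genes, and Cd4 and Cd28 are not among them. The starts of Cd3g and Cd3d lie 1355 bases apart on opposite strands of chromosome 9. Each sequence runs 5′ to 3′ on the strand of its gene, with the start after base 250. Capitals mark matches, on either strand, to 4 short motifs of factors that act in T cells: AGGAAG for ETS factors, TGTGGT for RUNX factors, CTTTGA for TCF/LEF factors such as the product of Tcf7, and AGATAA for GATA factors such as the product of Gata3. No 2 of the marked matches overlap.
Cd3g, chr9:44980382-44980681, minus strand: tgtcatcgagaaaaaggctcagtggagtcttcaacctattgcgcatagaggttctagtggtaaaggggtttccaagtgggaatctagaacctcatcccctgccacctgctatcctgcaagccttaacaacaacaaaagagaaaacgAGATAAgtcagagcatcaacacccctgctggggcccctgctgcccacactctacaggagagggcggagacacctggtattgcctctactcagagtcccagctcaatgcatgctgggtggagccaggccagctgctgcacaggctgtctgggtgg
Cd3d, chr9:44981536-44981835, plus strand: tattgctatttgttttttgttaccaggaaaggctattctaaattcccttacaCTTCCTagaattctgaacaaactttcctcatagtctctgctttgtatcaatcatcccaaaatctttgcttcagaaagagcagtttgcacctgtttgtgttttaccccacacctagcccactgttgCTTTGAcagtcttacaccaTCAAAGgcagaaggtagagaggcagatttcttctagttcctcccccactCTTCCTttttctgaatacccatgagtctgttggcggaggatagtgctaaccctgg
Lat, chr7:126369519-126369818, minus strand: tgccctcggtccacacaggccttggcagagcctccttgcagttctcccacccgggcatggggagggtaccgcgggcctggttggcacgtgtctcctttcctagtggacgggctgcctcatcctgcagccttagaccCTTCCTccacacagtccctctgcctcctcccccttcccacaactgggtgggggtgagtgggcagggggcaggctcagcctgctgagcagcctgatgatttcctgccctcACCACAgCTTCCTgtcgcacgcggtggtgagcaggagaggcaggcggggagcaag
Pdcd1, chr1:94052504-94052803, minus strand: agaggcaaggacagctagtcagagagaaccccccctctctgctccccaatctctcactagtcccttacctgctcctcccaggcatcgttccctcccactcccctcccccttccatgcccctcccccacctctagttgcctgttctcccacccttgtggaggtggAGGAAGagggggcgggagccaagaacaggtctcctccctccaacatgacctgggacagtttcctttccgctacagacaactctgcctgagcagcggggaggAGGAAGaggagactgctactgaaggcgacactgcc
The Cd3g window has the GATA letters from base -104 and no other match. The Cd3d window has ETS letters from bases -198 and -5 and TCF/LEF letters from bases -73 and -54. In Lat, RUNX letters from base -5 and ETS letters from base 3 stand next to each other with 1 base between them, and further ETS letters begin at base -114. Pdcd1 has ETS letters from bases -86 and 16. Counted over the first promoter of each gene, AGGAAG was found in 15 of the 25 members (60%) and in 35.1% of 27025 promoters, CTTTGA in 9 (36%) and 16.2%, TGTGGT in 4 (16%) and 16.9%, and AGATAA in 2 (8%) and 11.4%. A match of letters is a description of the window and says nothing of binding.

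Among the receptor chains and coreceptors, Cd3g and Cd4 fell and the other 5 genes did not pass. Cd3g (Entrez gene 12502), which encodes the gamma chain of CD3, had 7.58, 8.24 and 9.51 FPKM in CCR3 replicates 1, 2 and 4 and 13.04, 13.75 and 12.36 FPKM in VEH replicates 1, 2 and 4. The groups did not overlap, and the spread within each was small beside the gap between them: 8.44 ± 0.981 FPKM in CCR3 against 13.0 ± 0.695 FPKM in VEH (SD, n = 3 each). The log2 fold change was -0.58 ± 0.089 (SE, limma adjusted p = 0.0164). Pairs of values joined by "against" below are such means ± SD, CCR3 against VEH. Cd4 (12504), the coreceptor of helper and regulatory T cells, which some dendritic cells also carry, had 9.19, 7.41 and 10.01 FPKM in the CCR3 libraries and 16.09, 12.02 and 15.57 FPKM in the VEH libraries. Its highest CCR3 value lay below its lowest VEH value, with a log2 fold change of -0.66 ± 0.132 (SE, limma adjusted p = 0.0385). With libraries scaled to 1 sum the limma adjusted p of Cd4 was 0.0507.

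The other CD3 chains stood lower in the CCR3 group without passing. Cd3d, the delta chain, was 4.01 ± 1.12 against 5.80 ± 0.811 FPKM without overlap (limma adjusted p = 0.16). Cd3e, the epsilon chain, was 2.58 ± 0.712 against 3.30 ± 0.396 FPKM, and Cd247, the zeta chain, 3.37 ± 1.17 against 4.63 ± 0.365 FPKM, and both overlapped between groups. In all 3 of these genes CCR3 replicate 1 was the lowest library and CCR3 replicate 4 the highest of its group. The coreceptor chains of cytotoxic T cells were scarce, with Cd8a at 0.65, 0.68 and 1.05 FPKM in the CCR3 libraries and 1.22, 1.11 and 1.17 FPKM in the VEH libraries, and Cd8b1 at 0.33, 0.67 and 1.30 FPKM and 2.11, 1.89 and 1.24 FPKM. Neither passed (limma adjusted p = 0.165 and 0.113). Cd4 was thus the more abundant coreceptor gene per length in each of the 6 libraries.

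Among the kinases and adaptors, Lat fell and the other 6 tested genes did not pass. Lat (16797) encodes the membrane adaptor on which the signalling complex is built, and mast cells use it too. It had 4.69, 4.96 and 6.42 FPKM in the CCR3 libraries and 7.99, 8.57 and 9.23 FPKM in the VEH libraries. All CCR3 values were below all VEH values, with a log2 fold change of -0.60 ± 0.11 (SE, limma adjusted p = 0.0296). Markers of basophils and mast cells were negative in 8 of 8 genes, against 59.8% of all tested genes. None was called by limma, and 6 were lower at an unadjusted p under 0.05, against 15.1% of all tested genes. The 8 genes summed to 515 to 607 FPKM in CCR3 and 624 to 868 FPKM in VEH, and their part in the value of Lat was not tested.

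Lcp2, the cytosolic adaptor SLP-76 of T cells and myeloid cells, was 18.6 ± 3.25 against 25.4 ± 0.799 FPKM, and Skap1, an adaptor that links the receptor to integrins, 3.78 ± 0.716 against 5.56 ± 0.623 FPKM. Both were without overlap and missed the threshold (limma adjusted p = 0.0762 and 0.0824). Lck, the kinase that starts the cascade, was 3.77 ± 0.795 against 5.09 ± 0.726 FPKM, without overlap (adjusted p = 0.165). Zap70, the kinase that acts after it, was 1.5, 1.55 and 2.67 FPKM in the CCR3 libraries and 1.90, 2.81 and 1.68 FPKM in the VEH libraries. Its groups overlapped, and the 95% interval of its log2 fold change ran from -0.53 to 0.30. The Tec-family kinase gene Txk (interval -0.31 to 0.15) and the adaptor gene Sh2d2a (-0.56 to 0.31) also overlapped. Below the level tested, Trat1, an adaptor of the receptor complex, was 0.61 to 0.84 FPKM in CCR3 and 0.82 to 1.13 FPKM in VEH. Themis, a regulator of T cell development in the thymus, was 0.24 to 0.28 and 0.26 to 0.46 FPKM, and Sh2d1a, the adaptor SAP of the SLAM receptors, 0.77 to 1.01 and 0.75 to 1.02 FPKM.

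None of the 6 surface regulators was called by limma, and 4 were lower at an unadjusted p under 0.05, against 15.1% of all tested genes. Ptprcap, which encodes a protein bound to CD45, had 6.07, 6.67 and 8.61 FPKM in the CCR3 libraries and 9.75, 11.62 and 9.05 FPKM in the VEH libraries. The groups did not overlap, but the gene missed the threshold (limma adjusted p = 0.0909). Cd5, a dampener of receptor signals, was 2.03 ± 0.606 against 2.99 ± 0.199 FPKM, also without overlap. Cd2, an adhesion receptor, was 7.77 ± 2.53 against 10.8 ± 0.745 FPKM and overlapped through CCR3 replicate 4, at 10.22 FPKM. Cd6, a relative of Cd5, was 1.78 ± 0.587 against 2.17 ± 0.133 FPKM, and the early activation antigen gene Cd69 7.43 ± 0.746 against 8.93 ± 0.813 FPKM. Thy1 was the most abundant member per length, at 102 ± 9.06 FPKM in CCR3 libraries and 112 ± 1.26 FPKM in VEH libraries. In mice Thy1 is not restricted to T cells, and fibroblasts and nerve cells also make it.

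Of the costimulatory and inhibitory receptors Cd28 fell, Pdcd1 stood higher without passing, and Ctla4 overlapped almost fully. Cd28 (12487), the main costimulatory receptor of T cells, had 1.77, 1.29 and 1.37 FPKM in the CCR3 libraries and 2.79, 2.33 and 2.76 FPKM in the VEH libraries. The groups did not overlap, and the log2 fold change was -0.55 ± 0.102 (SE, limma adjusted p = 0.0302). Cd28 differs from most members in that CCR3 replicate 1 was its highest CCR3 library. Pdcd1, which encodes the inhibitory receptor PD-1 and whose values are given in full because they were seen to go the other way, had 2.67, 3.15 and 4.95 FPKM in the CCR3 libraries and 2.52, 2.34 and 2.19 FPKM in the VEH libraries. All CCR3 values were above all VEH values, but the gap between the nearest libraries was small and the gene did not pass (log2 fold change 0.42, 95% interval 0.05 to 0.80, limma adjusted p = 0.175). Ctla4, which competes with Cd28 for its ligands, was 8.88 ± 2.22 against 9.07 ± 0.953 FPKM (95% interval of the log2 fold change -0.39 to 0.30). Ctla4 and Cd28 share their ligands, and per length Ctla4 was above Cd28 in every library of both groups.

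Icos, a costimulatory receptor of activated T cells, was 5.36 ± 0.506 against 7.21 ± 0.781 FPKM without overlap (limma adjusted p = 0.0778). Further receptors of the tumour necrosis factor receptor family were also lower on average. Cd27 was 1.06 ± 0.348 against 1.91 ± 0.331 FPKM and Tnfrsf18, the GITR gene that regulatory T cells express highly, 18.0 ± 1.65 against 22.1 ± 0.811 FPKM, both without overlap (adjusted p = 0.0873 and 0.0869). Tnfrsf4, the OX40 gene, was 8.09 ± 1.07 against 9.29 ± 0.681 FPKM and overlapped. Cd40lg, by which helper T cells act on B cells and dendritic cells, stayed at 0.16 to 0.35 FPKM in CCR3 and 0.20 to 0.51 FPKM in VEH and was not tested.

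**Figure D2:**
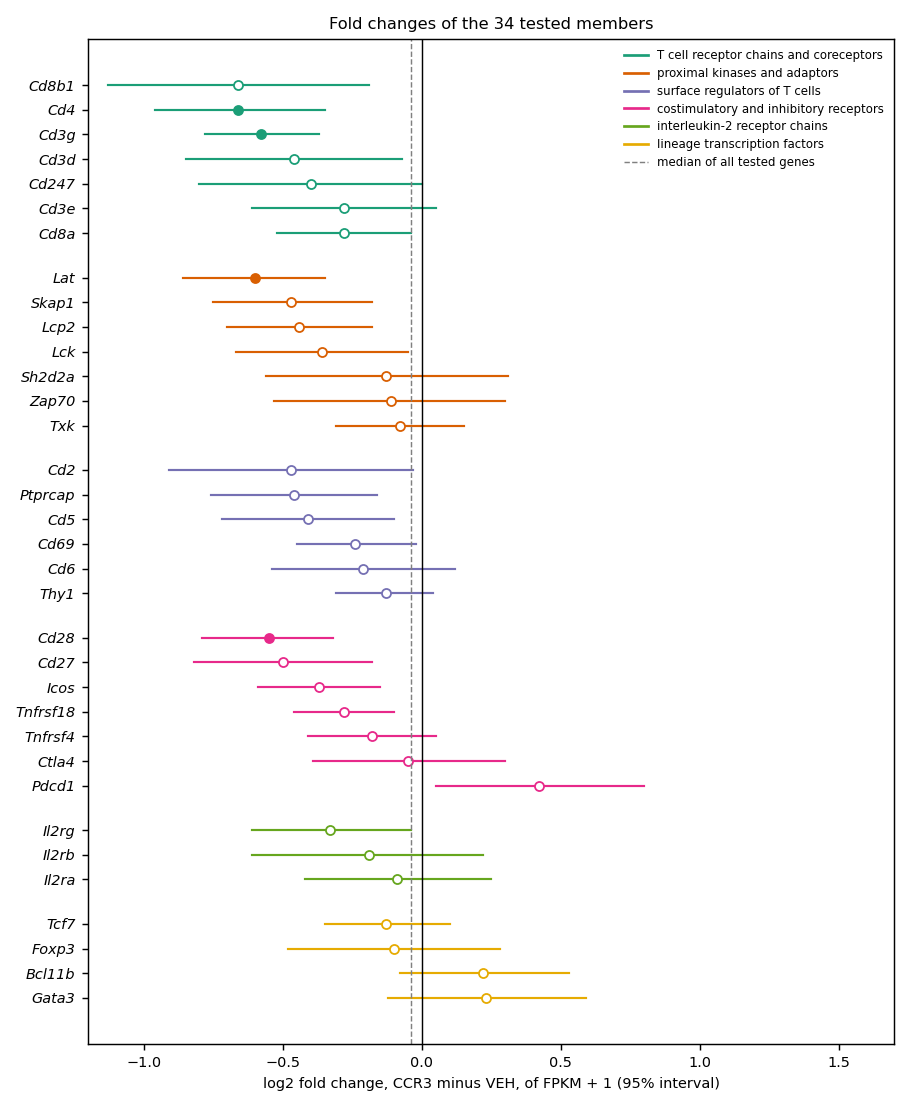
Log2 fold changes of FPKM + 1, CCR3 minus VEH, with 95% intervals from limma for the 34 tested genes, coloured by role, with filled points for genes past the threshold and a dashed line at the median of all tested genes. The 4 filled points are Cd4, Cd3g, Lat and Cd28, and Pdcd1, Gata3 and Bcl11b are the 3 points right of 0.

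The interleukin-2 receptor chains and the lineage factors held no called gene by limma. At an unadjusted p under 0.05, 1 of their 7 tested genes was lower and 0 higher, against 15.1% and 8.03% of all tested genes. Il2rg, the chain shared with the receptors of several other cytokines and made by most leukocytes, had 38.21, 35.04 and 49.62 FPKM in the CCR3 libraries and 55.61, 50.03 and 47.92 FPKM in the VEH libraries. Its groups overlapped through CCR3 replicate 4 (limma adjusted p = 0.17). Il2ra, the CD25 chain of activated and regulatory T cells, was 3.46 ± 0.761 against 3.72 ± 0.678 FPKM, and Il2rb 5.44 ± 1.68 against 6.23 ± 0.915 FPKM.

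Foxp3, the factor that defines regulatory T cells, had 1.75, 2.32 and 3.32 FPKM in the CCR3 libraries and 2.65, 3.09 and 2.26 FPKM in the VEH libraries, again shown in full after its values were seen. The highest and the lowest of the 6 values were both CCR3 libraries, and the 95% interval of the log2 fold change ran from -0.48 to 0.28. Bcl11b, a factor that keeps T cell identity and that keratinocytes also express, had 5.34, 7.51 and 5.31 FPKM in the CCR3 libraries and 4.74, 5.70 and 4.56 FPKM in the VEH libraries. Gata3, the type 2 helper factor, which epidermis and hair follicle also express, was 5.99 ± 1.68 against 4.84 ± 0.320 FPKM. Both overlapped, and in both CCR3 replicate 2 was the highest library. Of keratinocyte markers 6 of 6 were positive, against 5251 of the 13063 tested genes, and none was called by limma. Among these markers the unadjusted p was under 0.05 for 2 higher genes and 0 lower, against 8.03% and 15.1% of all tested genes. The 6 markers summed to 6050 to 9420 FPKM in CCR3 and 6220 to 7200 FPKM in VEH, with CCR3 replicate 2 highest. Their part in the values of Gata3 and Bcl11b was not tested. Tcf7, a factor of naive and memory T cells, was 4.75 ± 0.670 against 5.26 ± 0.271 FPKM. Tbx21, the type 1 helper factor, was listed at 0, 0.32 and 0.23 FPKM in the CCR3 libraries and was 0.19, 0.45 and 0.15 FPKM in the VEH libraries.

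The order of the CCR3 libraries was much alike from gene to gene. In 25 of the 34 tested members CCR3 replicate 1 was the lowest of its group, and in 29 CCR3 replicate 4 was the highest. Averaged over the 34 genes, log2(FPKM + 1) stood at -0.46, -0.31 and -0.05 in CCR3 replicates 1, 2 and 4 relative to the VEH mean, and at 0.02, 0.04 and -0.06 in VEH replicates 1, 2 and 4. The mean of CCR3 replicate 4 thus lay within the range of the VEH libraries. For the 7 receptor chains and coreceptors the same values were -0.71, -0.51 and -0.20 in CCR3, against 0.09, -0.01 and -0.07 in VEH, and here the groups did not overlap. For the 4 lineage factors they were -0.17, 0.23 and 0.12 in CCR3 and -0.01, 0.11 and -0.09 in VEH, with overlap.

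Markers of several other leukocytes also had lower means in CCR3, without a call in the pan-leukocyte, macrophage and natural killer lists. All 6 pan-leukocyte genes were negative, against 59.8% of all tested genes (median log2 fold change -0.25), and 3 were lower at an unadjusted p under 0.05, against 15.1% of all tested genes, and they summed to 715 to 981 FPKM in CCR3 and 966 to 1040 FPKM in VEH. As a mean they stood at -0.31, -0.50 and -0.04 in CCR3 replicates 1, 2 and 4 relative to the VEH mean, so CCR3 replicate 4 was at the lower end of the VEH range of -0.04 to 0.05. Of 11 macrophage and monocyte markers 10 were negative, with a median of -0.23, and 0 were called by limma. At an unadjusted p under 0.05, 2 were lower and 1 higher, against 15.1% and 8.03% of all tested genes. The 11 genes summed to 2500 to 3170 FPKM in CCR3 and 2990 to 3580 FPKM in VEH. Natural killer and innate lymphoid markers had 4 of 5 tested genes negative and 0 called by limma, and the unadjusted p was under 0.05 for 2 lower genes and 1 higher gene. The tested genes were Klrk1, Klrg1, Il1rl1, Areg and Rora, and Ncr1, Klrb1c, Eomes, Klre1 and Gzmc lay under the level tested. The whole list summed to 73.7 to 85.7 FPKM in CCR3 and 86.2 to 95.5 FPKM in VEH, mostly from Areg and Il1rl1. Markers of B and plasma cells were scarce, and the 7 genes together summed to 1.82 to 2.78 FPKM in CCR3 and 3.11 to 4.79 FPKM in VEH. Neutrophil markers went the other way in 4 of 7 genes, with a median of 0.24, 0 called by limma and 1 higher at an unadjusted p under 0.05. Their sums of 2810 to 4120 FPKM in CCR3 and 2530 to 3350 FPKM in VEH came mostly from S100a8 and S100a9. The log2 fold changes of S100a8, S100a9, Mmp8 and Retnlg were 0.25, 0.24, 0.51 and 0.31. Those of Csf3r, Cxcr2 and Mmp9 were -0.39, -0.12 and -0.19. Eosinophil markers were negative in 5 of 5 genes, with a median of -0.46. Of them 1 was called lower by limma (Ear2), against 2.37% of all tested genes. Eosinophil markers summed to 17.0 to 22.1 FPKM in CCR3 and 28.5 to 36.7 FPKM in VEH. The part of these cells in the values of the members was not tested.

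**Figure D3:**
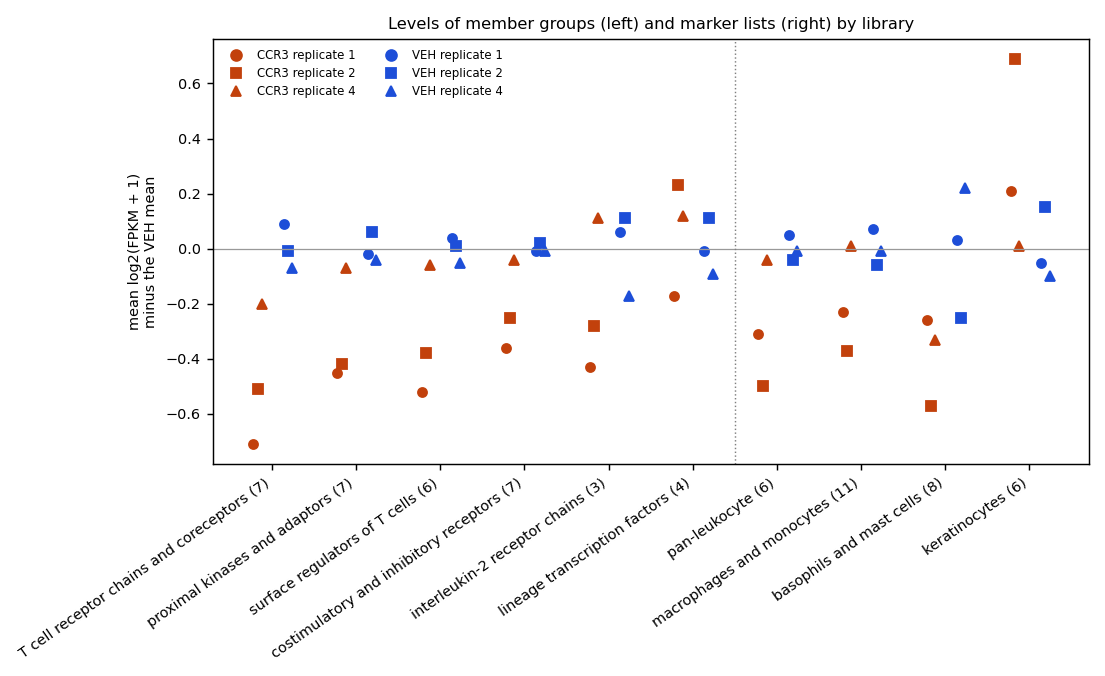
Mean log2(FPKM + 1) minus the VEH mean for the 6 role groups of members and 4 marker lists (number of tested genes in brackets), with CCR3 libraries (orange) left of VEH libraries (blue) and symbols for replicates 1, 2 and 4. CCR3 replicates 1 and 2 lie below the VEH libraries in the first 5 role groups, CCR3 replicate 4 lies closer to them, and keratinocyte markers stand highest in CCR3 replicate 2 (0.69).

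Levels were also set relative to the CD3 chains of the same library, as a description of the ratios. The mean log2(FPKM + 1) of Cd3d, Cd3e and Cd3g was 2.18, 2.49 and 2.68 in CCR3 replicates 1, 2 and 4 and 2.94, 2.96 and 2.77 in VEH replicates 1, 2 and 4, a difference of -0.44. This yardstick holds a called gene, Cd3g, and was lower in every CCR3 library, so a gene with equal levels in both groups comes out higher in CCR3 by that amount. Relative to it, 96.8% of all other tested genes had a higher mean in CCR3, 53.4% were above without overlap and 0.322% below, with a median difference of 0.40. Of the 31 members compared, 22 had a higher mean, 12 were above without overlap and 0 below, with a median difference of 0.16. The member shares for a higher mean and for lying above without overlap are thus under those of all genes. All these values share the same 3 genes, and 3 libraries against 3 cannot give a 2-sided exact permutation p under 0.1.

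Among the members the ratios ran over a range. Pdcd1 stood at -0.30, -0.44 and -0.11 in CCR3 replicates 1, 2 and 4 and -1.12, -1.22 and -1.10 in VEH replicates 1, 2 and 4, a difference of 0.86. Gata3 and Bcl11b followed with 0.67 and 0.66. The other 9 members above without overlap, Ctla4, Txk, Il2ra, Foxp3, Sh2d2a, Tcf7, Thy1, Il2rb and Cd6, differed by 0.23 to 0.39, which is less than the 0.44 by which the yardstick was lower. At the low end Cd4 and Cd8b1 differed by -0.22 each, Lat by -0.16 and Cd28 by -0.11, all with overlap. A ratio to CD3 in whole skin does not say in which cells a gene was transcribed.

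**Figure D4:**
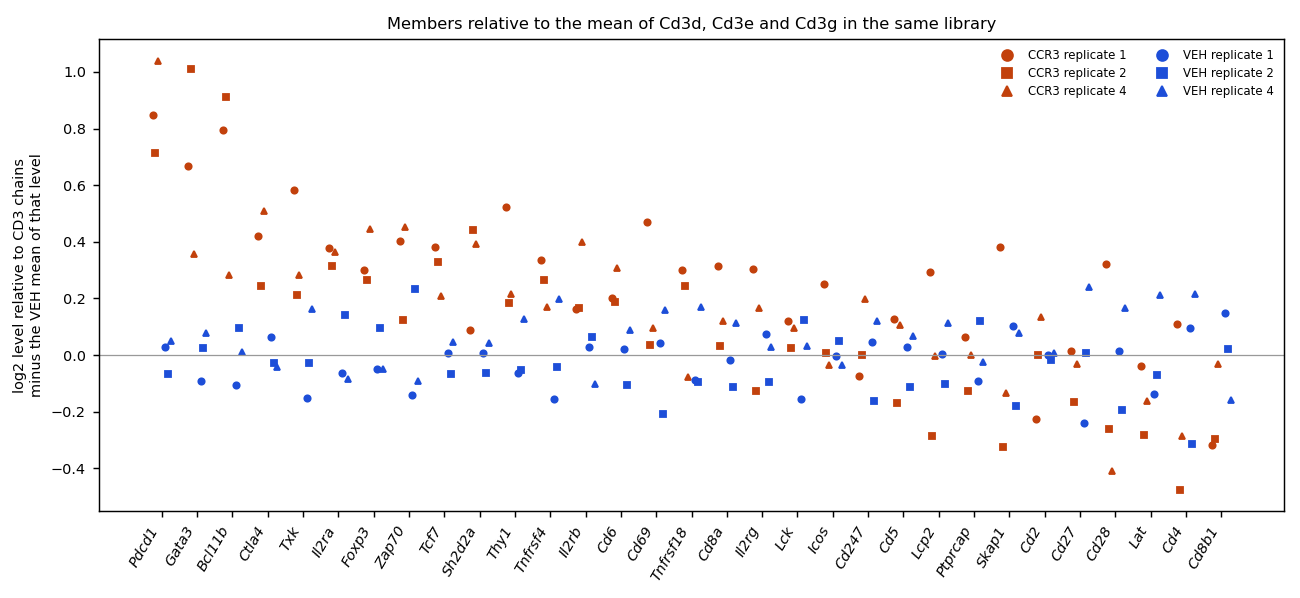
Log2 level of 31 members relative to the mean of Cd3d, Cd3e and Cd3g in the same library, minus the VEH mean of that level, with CCR3 libraries (orange) left of VEH libraries (blue) for each gene. Values above 0 in CCR3 include the lower CD3 mean itself (-0.44), and the differences run from 0.86 in Pdcd1, at the left, to -0.22 in Cd8b1, at the right.

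Of the remaining genes of the pathway, 6 lists with 85 genes were examined, of which 70 were tested. Of the tested genes 52 had a negative log2 fold change, against 59.8% of all tested genes. By limma 3 fell and 2 rose, where the shares over all genes are 2.37% and 1.36%. Of the falls 1, Il13, reached 1 FPKM only in VEH. Cd96, which was not called, did so too (0.58 to 0.96 FPKM in CCR3, 1.02 to 1.18 FPKM in VEH). Both are among the 52 and passed the filter through the group where they are higher. In the list of 21 tested further signalling genes 16 were negative (median -0.17). None was called by limma. An unadjusted p under 0.05 was reached by 7 lower and 0 higher genes, against 15.1% and 8.03% of all tested genes. Rac2, a GTPase of blood cells, was 28.1 ± 6.95 against 38.5 ± 2.26 FPKM. Its groups did not overlap, but it missed the threshold (limma adjusted p = 0.119).

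The list of negative regulators held both rises. Cblb, a ubiquitin ligase that restrains T cells activated without costimulation, had 8.47, 8.91 and 10.13 FPKM in the CCR3 libraries and 5.75, 6.05 and 5.36 FPKM in the VEH libraries. All CCR3 values were above all VEH values, with a log2 fold change of 0.60 ± 0.084 (SE, limma adjusted p = 0.013), and the call was lost without VEH replicate 1 or VEH replicate 4. Sla, which encodes an adaptor that lowers receptor levels in lymphocytes and is also made by myeloid cells, had 27.24, 21.51 and 36.31 FPKM in the CCR3 libraries and 16.28, 16.02 and 15.23 FPKM in the VEH libraries. Its log2 fold change was 0.77 ± 0.159 (SE, limma adjusted p = 0.0417), and the call held when CCR3 replicate 2 or 4 was left out and was lost without CCR3 replicate 1 or any VEH library. Of the 13 tested genes of this list 7 were positive and 6 negative, with a median of 0.01, and none was called lower. At an unadjusted p under 0.05, 4 genes were higher and 3 lower, against 8.03% and 15.1% of all tested genes. The 3 lower were Ptpn6, Csk and Dgkz, named after their values were seen, which encode a phosphatase, the kinase that restrains Lck and a lipid kinase. Their log2 fold changes were -0.51, -0.30 and -0.27, without overlap, and they missed the threshold (limma adjusted p = 0.0915, 0.103 and 0.111).

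Ligands of the costimulatory and inhibitory receptors, which antigen-presenting and other cells carry, gave 1 fall in 8 tested genes, 7 of them negative. Over all tested genes 2.37% were called lower and 59.8% were negative. Pdcd1lg2, a ligand of PD-1, had 2.66, 2.59 and 4.37 FPKM in the CCR3 libraries and 5.80, 6.40 and 5.82 FPKM in the VEH libraries. The groups did not overlap, and the log2 fold change was -0.76 ± 0.151 (SE, limma adjusted p = 0.037). The call held only without CCR3 replicate 4. The ligand gene Pdcd1lg2 and the receptor gene Pdcd1 thus had fold changes of opposite sign, of which the receptor's did not pass.

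T cell cytokines and effectors gave 2 falls in 6 tested genes, all 6 negative (median -0.45). Over all tested genes 2.37% were called lower and 59.8% were negative (median -0.04). Il4 was 6.27, 5.13 and 8.06 FPKM in the CCR3 libraries and 11.92, 15.74 and 12.99 FPKM in the VEH libraries, without overlap (log2 fold change -0.97 ± 0.151, SE, limma adjusted p = 0.0168). Il13, which reached 1 FPKM only in VEH and so passed the filter through the group where it is higher, was 0.53, 0.37 and 0.33 FPKM in the CCR3 libraries and 1.07, 1.88 and 1.31 FPKM in the VEH libraries (limma adjusted p = 0.0242). Either call was kept without CCR3 replicate 2 or 4 only. Basophils, mast cells and innate lymphoid cells also make both cytokines. The other 8 genes of this list, Il2, Il17a, Il17f, Il5, Il21, Il22, Prf1 and Fasl, lay under the level tested.

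Further inhibitory and costimulatory receptors held no called gene by limma among 10. The unadjusted p was under 0.05 for 2 lower genes and 1 higher gene, against 15.1% and 8.03% of all tested genes. Havcr2, the TIM-3 gene of T cells and myeloid cells, was 22.4 ± 2.69 against 18.2 ± 0.522 FPKM, above without overlap, and Cd200r1 15.0 ± 1.2 against 17.4 ± 1.09 FPKM, below without overlap. Homing and survival genes likewise had 0 of 12 called by limma. For them the unadjusted p was under 0.05 for 3 lower genes and 0 higher, against the same 15.1% and 8.03%. Cxcr6, a receptor of tissue-resident T cells, was 3.64 ± 0.590 against 6.06 ± 1.11 FPKM (limma adjusted p = 0.0523), and Cxcr3 3.71 ± 0.809 against 5.19 ± 0.373 FPKM.

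**Figure D5:**
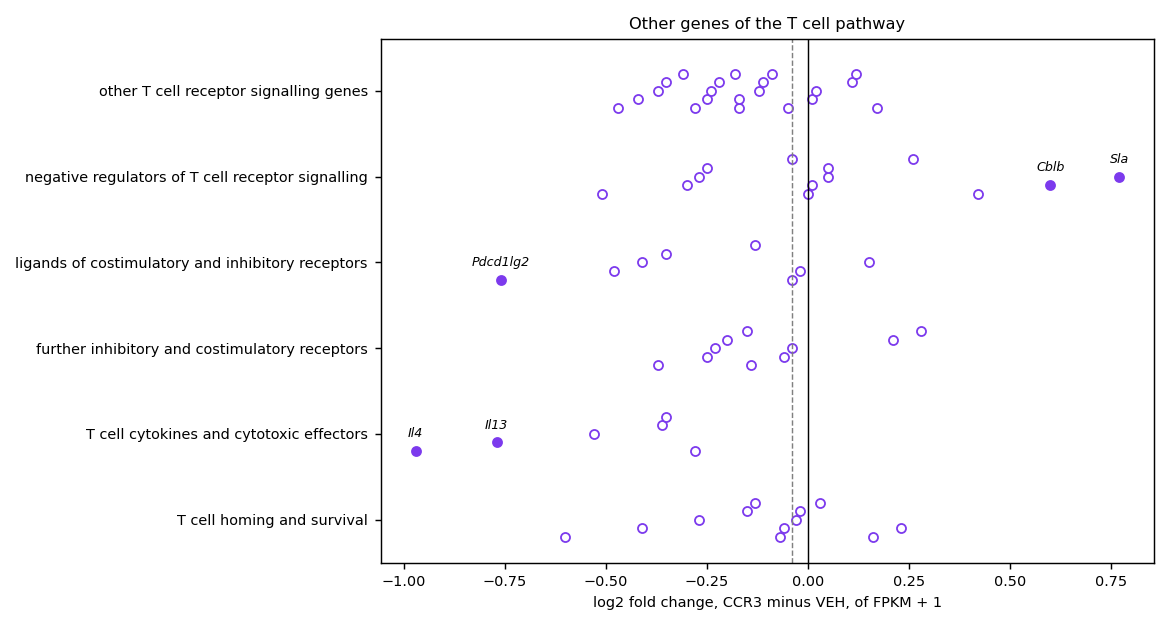
Log2 fold changes of FPKM + 1, CCR3 minus VEH, of the 70 tested genes in 6 further lists of the pathway, 1 point a gene, filled and named where limma's adjusted p was under 0.05, with a dashed line at the median of all tested genes. Cblb and Sla lie right of 0, and Pdcd1lg2, Il4 and Il13 lie left.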

How the data were processed

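Poly(A) RNA of 6 skin libraries was read in single-end mode (50 bases), per the labels' protocols. Per the submitters' processing notes, HISAT was the aligner. The version, the genome build, the annotation and the counting tool: not given in the sources used here. The authors deposited 1 table of FPKM values for 18824 genes with 2 decimals. It holds no counts, so depth is unknown: of 3725 low values, 9.8% came out whole (tolerance 0.05) when divided by the lowest value of their gene, and chance gives 10%.

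Values were transformed to log2(FPKM + 1), which understates changes of low genes. The 13063 genes that reached 1 FPKM in 3 or more libraries were tested with limma 3.58.1 (R 4.3.3) with a trended variance, 2-sided, with Benjamini-Hochberg adjustment. A count test planned for counts was not used. Groups came from the titles. In a simulation of CCR3 against VEH (5 draws of 13063 genes, 200 changed in each), 85.1% of changes of 0.5 on the log2 scale and 99.4% of changes of 1 were recovered, and 4.8% of calls were false. Only more abundant genes were changed, and the noise was normal, independent between genes and of the same spread in both groups. These rates therefore do not cover low members such as Cd28, Cd8a and Cd8b1. Nor do they cover a wider spread in CCR3 or a library that shifts many genes together. Plots were made with Python 3.11.15 and matplotlib 3.10.9. Members, lists and motifs were chosen with earlier results of these data known.

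Values in every library are given for called genes and for the gene with the smallest p in each role group. Of other lists, called genes or up to 2 genes with the smallest p are named, and other genes were chosen to check a tissue or cell type. Of 106 cell type markers 9, all T cell receptor segments, were not matched by name. The labels do not say whether equal replicate numbers pair the samples, so no block was used in the main fit. Some genes of these lists are not reported here by name.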

Additional observations from a re-analysis of the deposited data

How the results depend on the processing

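The 4 members called lower, and the 0 called higher, were unchanged in number with median-centred values, a pseudocount of 0.1, no variance trend and a robust trend. With libraries scaled to the same sum, or a filter of 3 FPKM, 3 were lower. Without a filter 1 was lower (Cd3g, with 130 of all genes), and at an adjusted p under 0.1 there were 10 (5.81% of all genes). Leaving out each library in turn gave 0 to 16 lower and 0 higher, where 0.306% to 8.29% of all genes were lower and 28 to 558 genes higher. The other pathway genes, 3 lower and 2 higher, became 1 and 1 without a filter, where 130 of all genes were lower and 90 higher. At an adjusted p under 0.1 they were 9 and 2, with 5.81% of all genes lower. Without each library in turn 0 to 24 pathway genes were lower and 0 to 2 higher, among the shares of all genes just given. The replicate block, on numbers that the labels do not tie to pairs, gave 2 lower members (Lat and Cd4, with 144 of all genes). It gave 0 lower and 1 higher pathway genes, with 89 of all genes higher. Correlations of deviations between equal numbers were -0.06, 0.08 and -0.03, and not every sample correlated best with its own number. With 3 libraries a group these correlations cannot settle whether the samples were paired. Relative to the CD3 chains, 12 of 31 members were above without overlap (8 to 16 under the alternatives), against 53.4% of all other tested genes in the main setting. The number of members below was 0, against 0.322% of all other tested genes. It became 3 with Cd2, Cd3e, Lck and Thy1 as the yardstick and 0 to 2 without each library in turn.

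Sign changes occurred in uncalled genes when 1 library was left out. The log2 fold change became 0.037 for Zap70 without VEH replicate 2, and 0.118 for Sh2d2a, 0.075 for Ctla4, 0.037 for Il2ra and 0.053 for Foxp3 without CCR3 replicate 1. It became 0.01 and 0.012 for Ctla4 without CCR3 replicate 2 and VEH replicate 1, and 0.021 for Il2ra without VEH replicate 2. The lowest values over the left-out libraries were -0.293 for Zap70, -0.287 for Sh2d2a, -0.221 for Ctla4, -0.21 for Il2ra and -0.273 for Foxp3, each without CCR3 replicate 4. The cause was not tested. With fewer libraries the test also has less to estimate the spread from. Low FPKM and unknown depth limit Cd8a, Cd8b1, Cd27 and the 5 untested members most.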

Other observations

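Some genes of T cells and of cells that meet them were called among the lists used to check cell types. Xcl1, a chemokine gene of natural killer cells, CD8+ T cells and epidermal gamma delta T cells, had 0.40, 0.71 and 0.40 FPKM in CCR3 replicates 1, 2 and 4 and 1.72, 1.31 and 1.52 FPKM in VEH replicates 1, 2 and 4. It fell (log2 fold change -0.75, limma adjusted p = 0.0155), having reached the level tested only in VEH. The other 4 tested genes of its list did not pass. Over all tested genes 2.37% were called lower. Batf3, a factor of the dendritic cells that present to CD8+ T cells, had 1.29, 1.65 and 2.13 FPKM in the CCR3 libraries and 3.07, 3.21 and 2.79 FPKM in the VEH libraries and fell as well (log2 fold change -0.59, limma adjusted p = 0.0385). Its call held only without CCR3 replicate 4, while that of Xcl1 was lost without CCR3 replicate 1, VEH replicate 1 or VEH replicate 4. Batf3 was the only call among 6 tested dendritic and Langerhans genes, against 2.37% of all tested genes called lower. Of the 6 genes 4 were negative and 2 positive (median -0.12), where 59.8% of all tested genes were negative. The mean of that list stood at -0.28, -0.24 and 0.07 in CCR3 replicates 1, 2 and 4 and at 0.10, -0.11 and 0.01 in VEH replicates 1, 2 and 4.

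The remaining marker lists gave the following counts by limma, where 2.37% of all tested genes were called lower and 1.36% higher. Of all tested genes 59.8% were negative and 18.3% lay below without overlap. At an unadjusted p under 0.05, 15.1% of all tested genes were lower and 8.03% higher. Eosinophil markers had 1 of 5 tested genes lower (Ear2), with 5 of 5 negative, 3 lower at an unadjusted p under 0.05 and 4 below without overlap, and their mean stood at -0.63, -0.50 and -0.29 in CCR3 replicates 1, 2 and 4 and at -0.03, -0.06 and 0.08 in VEH replicates 1, 2 and 4. There was also a call in endothelial markers, 1 of 4 lower (Kdr, list median -0.16), and in hair follicle markers, 1 of 3 higher (Tchh). The limma adjusted p was 0.0492 for Ear2, 0.0489 for Kdr and 0.0149 for Tchh. The call of Ear2 held only without CCR3 replicate 2 or VEH replicate 2, and that of Kdr only without CCR3 replicate 4. Tchh lost its call without CCR3 replicate 1, VEH replicate 1 or VEH replicate 4. None was called of 7 neutrophil, 4 fibroblast, 5 skeletal muscle and 4 adipocyte genes. At an unadjusted p under 0.05, 1 neutrophil gene was higher and 3 adipocyte genes were lower. The 4 adipocyte genes had a median log2 fold change of -0.71, and 3 lay below without overlap. Their mean stood at -0.16, -1.12 and -0.77 in CCR3 replicates 1, 2 and 4 and at -0.07, -0.06 and 0.13 in VEH replicates 1, 2 and 4. Of the B and plasma cell list 1 gene was tested, Cd79b, averaging 1.55 FPKM in CCR3 libraries and 2.73 FPKM in VEH libraries, which missed the threshold (adjusted p = 0.0797).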
